A study of Mus musculus with 12 samples.

Results

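Monocyte marker genes were followed in BMDMs, that is, bone marrow-derived macrophages that develop in culture from mouse progenitor cells. The genes are *Ly6c2*, *Plac8*, *F13a1*, *Vcan*, *Chil3*, *S100a4*, *S100a8*, *S100a9*, and *Hp*. They were chosen by symbol, as genes known to mark monocytes, with earlier results of these data known. All 9 were among the 18376 genes listed. All cells came from adult C57BL/6J mice of WT genotype and were cultured with 50 ng/ml mouse M-CSF, the growth factor that drives macrophage differentiation. CTRL cells received nothing else, Act cells received 50 ng/ml recombinant activin A, FST cells received 250 ng/ml FST288, and Act + FST cells received both, for 6 days. Activin A is a cytokine of the TGF-β family, and FST288 is an isoform of its natural antagonist follistatin, which captures the ligand outside the cell. Each group had 3 libraries, numbered 1 to 3 in the labels. The labels do not say whether replicates were separate mice or cultures, so p-values measure only the spread between these libraries.

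Classical monocytes leave the bone marrow with high surface Ly6C and lose much of their own program as they become macrophages. Whether their marker genes measure that step in these cultures was not tested. The genes fall into several roles. *Hp*, *Chil3*, *F13a1*, and *Vcan* encode secreted proteins, *S100a4*, *S100a8*, and *S100a9* encode small calcium-binding proteins, and *Ly6c2* and *Plac8* encode a surface antigen and a small cysteine-rich protein. Several of them are not monocyte-specific. *S100a8*, *S100a9*, *Chil3*, and *Hp* are also transcribed in the neutrophil lineage, and *F13a1*, *S100a4*, and *Vcan* in some macrophages.

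Values were normalized counts, that is, reads per gene after the authors had divided each library by a factor of its own and removed the decimals. Totals per library ranged from 5643708 to 5955400, and the steps among low values place the counted reads at about 5230000 to 6360000 per library. The macrophage identity of the cultures was plain in all 12 libraries. *Adgre1*, which encodes F4/80, ranged from 2037 to 2411, and the summed value of 11 macrophage markers ranged from 15820 to 17358. Neutrophil genes were present too, with a summed value of 2583 to 3845 over 15 genes. Among them the receptor gene *Csf3r* was 969 to 1595 and the granule gene *Ltf* 344 to 592, whereas the surface marker *Ly6g* was 2 to 12. Monocyte markers were low to high by comparison with the median gene, at 35.7 normalized counts per kb of exon. The highest level per length was that of *S100a9* at 398 per kb, above 99.1% of genes, followed by *S100a8* (186 per kb), *F13a1* (167 per kb), and *Chil3* (161 per kb). *Hp* (59.3 per kb) and *S100a4* (57.6 per kb) were above the median gene as well. *Ly6c2* (24.3 per kb), *Plac8* (15.9 per kb), and *Vcan* (3.19 per kb) lay below the median gene.

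The 9 genes did not share a direction after activin A. In Act versus CTRL, *Hp* rose 3.94-fold, *S100a4* fell to 0.507 of its CTRL level, and the other 7 genes did not pass the test of limma at an adjusted p of 0.05 over all genes. That is 2 of 9 genes called, where 20.2% of the 14318 genes tested were called. By direction it is 1 higher, against 10.3% of all genes, and 1 lower, against 9.97%. *Hp* was also the 1 gene of the 9 that met the 2-fold limit for DEGs, as did 5.66% of all genes. With the replicate number as a block, which the paired deviations of same-numbered libraries allow, *F13a1* (higher) and *Vcan* (lower) were called as well, giving 4 of 9 against 31.5% of all genes. The median log2 fold change of the 9 genes was 0.07, against 0.004 over all genes tested. Values in Act and CTRL did not overlap for 2 higher genes (*Hp* and *F13a1*) and 1 lower gene (*S100a4*), and 35.7% of all genes tested had such groups (18% higher and 17.6% lower). Because these are bulk libraries, fewer cells of a type and less RNA per cell cannot be told apart in any of these differences.

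**Figure D1:**
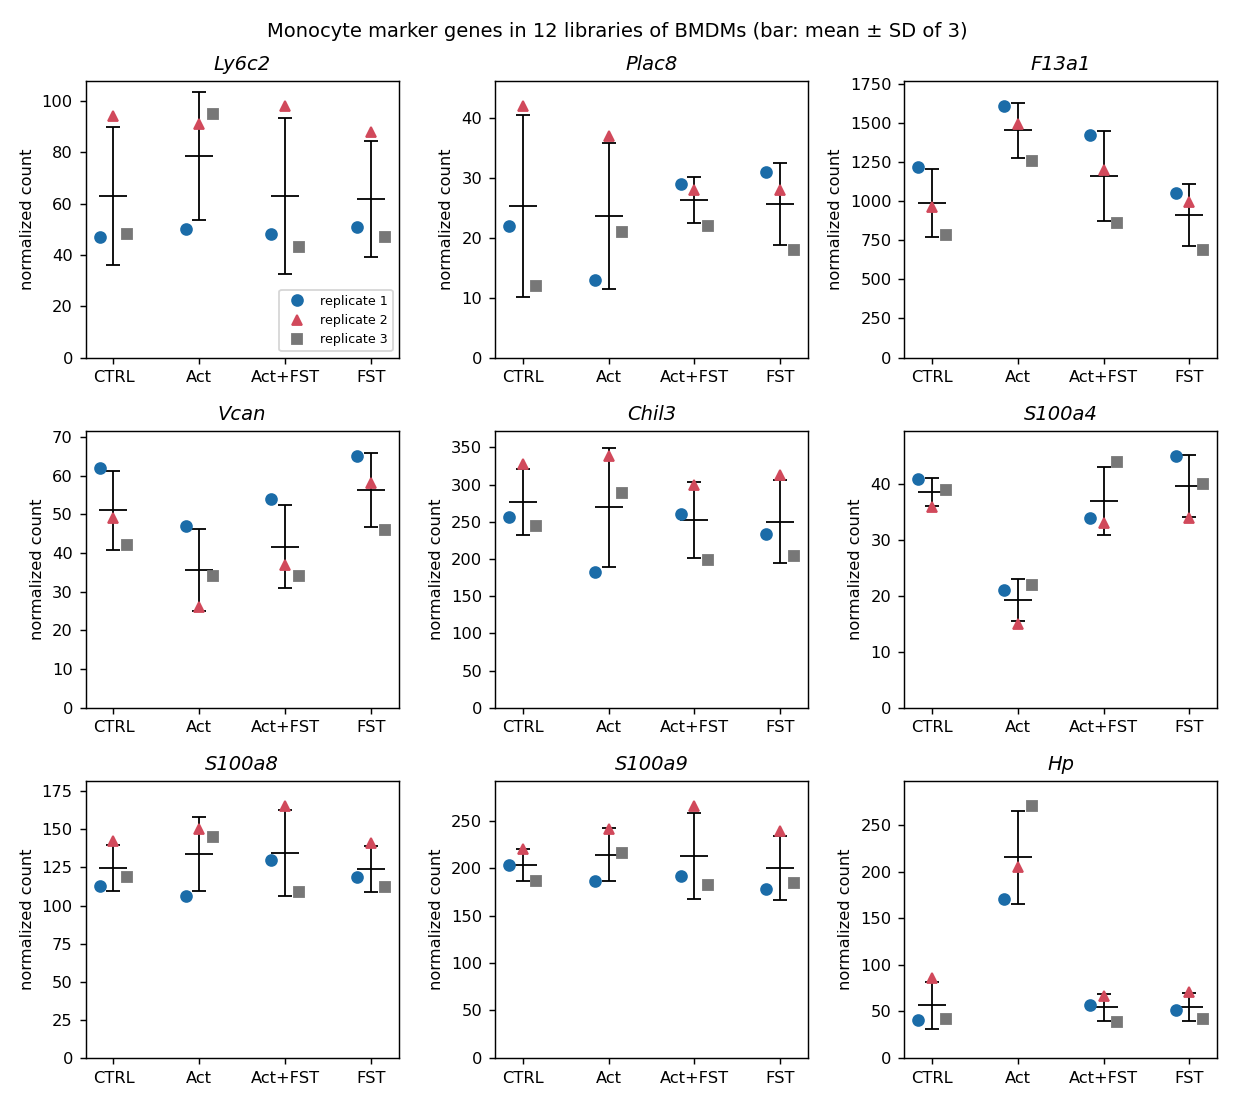
Normalized count (y axis, from 0) of each of the 9 genes in the 12 libraries, by group on the x axis, with symbols for replicate numbers and bars for mean ± SD of 3 libraries. *Hp* in Act (171 to 270) stood above the other groups (39 to 86) and *S100a4* in Act (15 to 22) below them (33 to 45), whereas replicate 2 was the highest library in all 4 groups for *Chil3*, *S100a8*, and *S100a9*.

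*Hp* encodes haptoglobin, a secreted acute-phase protein that binds free haemoglobin. The gene (ENSMUSG00000031722) lies on the minus strand at chr8:109575128-109579172 of mm10. Its normalized counts were 41, 86, and 42 in CTRL, 171, 205, and 270 in Act, 57, 67, and 39 in Act + FST, and 51, 71, and 42 in FST. The lowest Act library (171) lay above the highest of the other 9 libraries (86), and those 9 overlapped between groups. The Act mean was 215 ± 50.3, against 56.3 ± 25.7 for CTRL, 54.3 ± 14.2 for Act + FST, and 54.7 ± 14.8 for FST (SD, n = 3). The log2 difference of Act from CTRL was 1.98 (SE 0.30, 95% interval 1.32 to 2.63, limma adjusted p = 0.00057). It held in all 3 same-numbered pairs, with log2 differences of 2.03, 1.24, and 2.66 in replicates 1, 2, and 3. The levels of the other 3 groups did not differ beyond their spread.

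*F13a1* encodes the A subunit of coagulation factor XIII, a transglutaminase that cross-links fibrin and matrix proteins. The gene (ENSMUSG00000039109, minus strand, chr13:36867178-37050244) was the most counted of the 9. Counts were 1218, 964, and 786 in CTRL, 1606, 1489, and 1258 in Act, 1424, 1199, and 857 in Act + FST, and 1052, 992, and 685 in FST. Every group ran from replicate 1 down to replicate 3, and the whole Act group lay above CTRL and FST but overlapped Act + FST. Act exceeded CTRL by 0.57 on the log2 scale (SE 0.21, 95% interval 0.12 to 1.01), which did not pass the test (limma adjusted p = 0.073). With the replicate block the SE was 0.06 and the adjusted p was 8.8e-06, and Act was higher in 3 of 3 pairs by 0.40, 0.63, and 0.68. The order of group means was Act (1451 ± 177), Act + FST (1160 ± 286), CTRL (989 ± 217), and FST (910 ± 197), where neighbouring groups did not differ beyond their spread without the block.

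*Vcan* encodes versican, a large proteoglycan of the extracellular matrix (ENSMUSG00000021614, minus strand, chr13:89655312-89742509). Its counts were 62, 49, and 42 in CTRL, 47, 26, and 34 in Act, 54, 37, and 34 in Act + FST, and 65, 58, and 46 in FST. Replicate 1 was the highest library in each group, and Act overlapped every other group. The log2 difference of Act from CTRL was −0.53 (SE 0.25, 95% interval −1.06 to 0.01, limma adjusted p = 0.16). Act was lower in 3 of 3 pairs, and the adjusted p was 0.025 with the replicate block.

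*Chil3*, also known as Ym1, encodes a secreted chitinase-like lectin of alternatively activated macrophages and of myeloid cells in bone marrow (ENSMUSG00000040809, minus strand, chr3:106147554-106167564). Counts were 257, 327, and 245 in CTRL, 182, 338, and 289 in Act, 260, 300, and 198 in Act + FST, and 234, 313, and 204 in FST. Group means lay between 250 and 276, and the Act group spanned both the lowest (182) and the highest (338) of the 12 libraries. The log2 difference of Act from CTRL was −0.07 (95% interval −0.56 to 0.42, limma adjusted p = 0.88), so a change of up to 0.56 in size was within the interval. Reads of its near-identical neighbour *Chil4* were not analysed here.

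The *S100* genes of the set sit together on chromosome 3. S100A8 and S100A9 form calprotectin, a zinc- and calcium-binding alarmin that signals through TLR4, and S100A4 is a calcium-binding regulator of cell motility that binds non-muscle myosin. Their windows around the transcription start, from 250 bases before to 50 bases after it, are shown because *S100a4* differed between groups and the other pair by replicate number. They are the RefSeq sequences of GRCm38.p6, of which 8 of the 9 genes had an entry (not *Hp*), at chr3:90603520-90603819 (plus strand, *S100a4*), chr3:90668821-90669120 (plus strand, *S100a8*), and chr3:90695672-90695971 (minus strand, *S100a9*). Capitals mark matches, on either strand, to the letters TTGCNNAA (C/EBP type), GAGGAA (PU.1 type), CAGAC (SMAD type), or TGANTCA (AP-1 type).
S100a4: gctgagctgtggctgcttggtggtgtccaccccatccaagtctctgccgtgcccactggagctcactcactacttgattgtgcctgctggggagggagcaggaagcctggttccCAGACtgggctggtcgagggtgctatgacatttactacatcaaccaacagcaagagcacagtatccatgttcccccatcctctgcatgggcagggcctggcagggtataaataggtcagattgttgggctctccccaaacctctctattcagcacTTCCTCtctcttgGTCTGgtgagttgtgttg
S100a8: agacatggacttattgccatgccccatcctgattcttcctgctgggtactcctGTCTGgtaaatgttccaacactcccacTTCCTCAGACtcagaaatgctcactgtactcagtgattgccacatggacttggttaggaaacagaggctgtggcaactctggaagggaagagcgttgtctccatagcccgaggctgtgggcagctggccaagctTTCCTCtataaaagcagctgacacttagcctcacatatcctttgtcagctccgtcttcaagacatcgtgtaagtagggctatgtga
S100a9: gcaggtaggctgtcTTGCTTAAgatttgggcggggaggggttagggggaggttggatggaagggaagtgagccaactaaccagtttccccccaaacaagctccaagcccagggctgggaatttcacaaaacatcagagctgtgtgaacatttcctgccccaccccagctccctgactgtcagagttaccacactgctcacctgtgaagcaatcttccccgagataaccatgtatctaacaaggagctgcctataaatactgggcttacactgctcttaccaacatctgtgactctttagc
These letters are common, with matches in 10.8%, 28.3%, 49.6%, and 7.81% of the 32851 promoter windows in the table. *S100a4* held 1 GAGGAA and 2 CAGAC matches, *S100a8* held 2 of each with 1 overlapping pair, and *S100a9* held 1 TTGCNNAA match. A match is only a string of letters and says nothing on whether a factor binds there.

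*S100a4* (ENSMUSG00000001020, chr3:90603771-90606045) was the member that fell. Counts were 41, 36, and 39 in CTRL, 21, 15, and 22 in Act, 34, 33, and 44 in Act + FST, and 45, 34, and 40 in FST. All 3 Act libraries lay below all 9 others, which did not separate by group. The log2 difference of Act from CTRL was −0.98 (SE 0.20, 95% interval −1.41 to −0.55, limma adjusted p = 0.0036), a 1.97-fold fall and so just short of the 2-fold limit set for DEGs. Pair by pair it fell by 0.93, 1.21, and 0.80 on the log2 scale. Counts of this gene may be incomplete, since 302 of its 584 exonic bases (51.7%) also belong to *Gm42674* on the same strand in the GENCODE annotation, and reads on several genes were left out by the authors.

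*S100a8* (ENSMUSG00000056054, chr3:90668978-90670035) gave counts of 113, 142, and 119 in CTRL, 106, 150, and 145 in Act, 130, 165, and 109 in Act + FST, and 119, 141, and 112 in FST. *S100a9* (ENSMUSG00000056071, chr3:90692632-90695721) gave 203, 220, and 186 in CTRL, 186, 241, and 216 in Act, 192, 265, and 182 in Act + FST, and 178, 239, and 184 in FST. For each gene, all groups overlapped and replicate 2 was the highest library in each group. Act minus CTRL was 0.09 for *S100a8* (95% interval −0.28 to 0.46, limma adjusted p = 0.77) and 0.07 for *S100a9* (−0.25 to 0.40, adjusted p = 0.8). The intervals of both genes leave out a 2-fold change in either direction.

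*Ly6c2* encodes a Ly6C surface antigen, the protein by which mouse classical monocytes are usually sorted (ENSMUSG00000022584, minus strand, chr15:75108158-75111970). Reads of its near-identical paralog *Ly6c1* were not analysed here, and reads that fit both genes would have been left out as aligning to several positions. Its window (chr15:75111922-75112221, minus strand) is shown because its level had the largest fold difference between replicate numbers among the 9 genes, and it held 2 GAGGAA matches and 1 CAGAC match, marked as above.
Ly6c2: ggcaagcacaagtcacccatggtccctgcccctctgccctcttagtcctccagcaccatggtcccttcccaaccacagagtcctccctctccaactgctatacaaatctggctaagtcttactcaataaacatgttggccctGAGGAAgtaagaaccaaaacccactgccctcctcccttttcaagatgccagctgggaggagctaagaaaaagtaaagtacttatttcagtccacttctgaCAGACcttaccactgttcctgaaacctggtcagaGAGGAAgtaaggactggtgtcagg
Counts of *Ly6c2* were 47, 94, and 48 in CTRL, 50, 91, and 95 in Act, 48, 98, and 43 in Act + FST, and 51, 88, and 47 in FST. The 12 values formed a low class of 43 to 51 and a high class of 88 to 98, with every replicate 2 library and Act replicate 3 in the high class. Act minus CTRL was 0.34 on the log2 scale (95% interval −0.48 to 1.15, limma adjusted p = 0.6), and the third pair gave nearly all of it, with pair differences of 0.09, −0.05, and 0.97.

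*Plac8*, a marker of monocytes and other marrow leukocytes (ENSMUSG00000029322, minus strand, chr5:100553725-100572245), was the least counted of the genes. Its counts were 22, 42, and 12 in CTRL, 13, 37, and 21 in Act, 29, 28, and 22 in Act + FST, and 31, 28, and 18 in FST. All groups overlapped, and the spread was widest in CTRL, where the SD was 60.3% of the mean. Act minus CTRL was −0.05 (95% interval −0.97 to 0.88, limma adjusted p = 0.96), which does not resolve changes under about 2-fold.

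**Figure D2:**
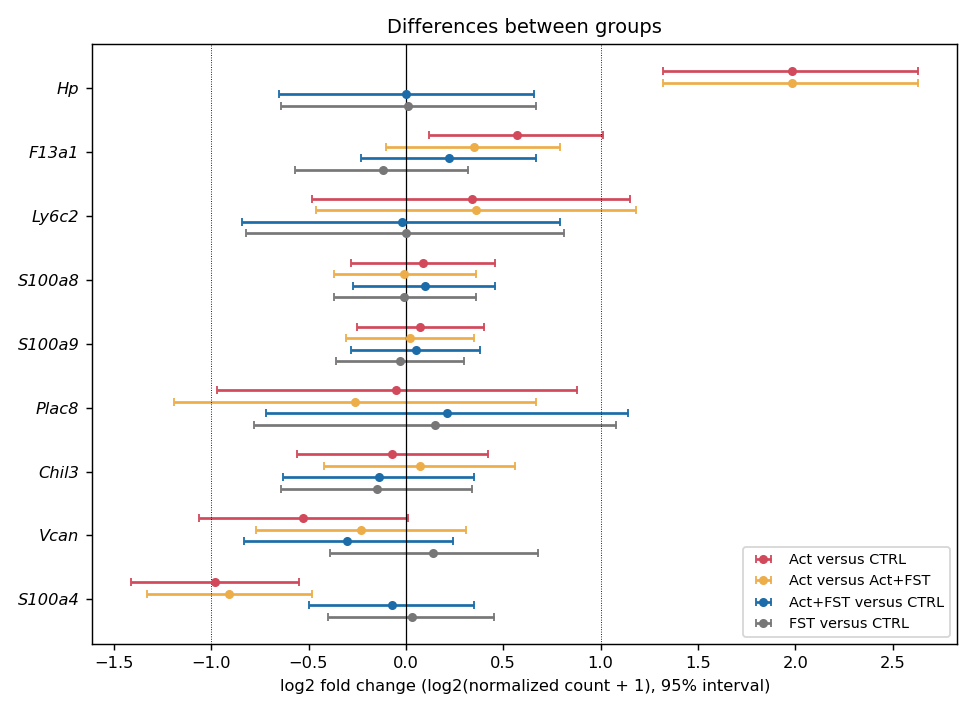
Log2 fold change with its 95% interval (x axis) for each gene (y axis) in 4 comparisons, from limma on log2(normalized count + 1), with dotted lines at a 2-fold change. *Hp* and *S100a4* passed the test in the comparisons of Act with CTRL and with Act + FST. The interval of *F13a1* in Act versus CTRL (0.12 to 1.01) also left out 0, with an adjusted p of 0.073, while every interval of Act + FST versus CTRL and FST versus CTRL included 0.

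To see what follistatin did to these differences, Act was compared with Act + FST. The same *Hp* and *S100a4* passed the test, 2 of 9 genes against 21.3% of all genes tested. *Hp* was higher in Act by 1.98 (95% interval 1.32 to 2.63, limma adjusted p = 0.00058) and *S100a4* lower, at −0.91 (95% interval −1.33 to −0.48, adjusted p = 0.0053). *F13a1* differed by 0.35 (95% interval −0.10 to 0.79, limma adjusted p = 0.28), which the replicate block called (adjusted p = 0.00062), for 3 of 9 genes against 32.6% of all genes. The difference of *Vcan* was −0.23 (adjusted p = 0.58). Against FST alone, 3 of 9 genes passed where 23.5% of all genes did. They were *Hp* (1.97, limma adjusted p = 0.00049), *S100a4* (−1.01, a fall of 2.01-fold, adjusted p = 0.0025), and *F13a1* (0.69, adjusted p = 0.028). The *F13a1* call against FST was lost without Act replicate 1 (0.61, adjusted p = 0.094), Act replicate 2 (0.67, adjusted p = 0.08), or FST replicate 3 (0.50, adjusted p = 0.13). *Vcan* differed from FST by −0.67 (limma adjusted p = 0.07), and was called with the replicate block (adjusted p = 0.0055) and without Act replicate 1 (−0.89, adjusted p = 0.028). With the block 4 of 9 genes were called against FST, and 34.3% of all genes. These comparisons share the Act libraries with the comparison to CTRL.

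Act + FST and FST were then each set against CTRL. None of the 9 genes was called by limma in Act + FST versus CTRL, where 0% of all genes were called (0.559% with the replicate block, and again 0 of the 9). At an unadjusted p under 0.05 the count was 0 of 9 genes, against 4.57% of all genes, and 1 of 9 with the replicate block, against 9.81%. That 1 gene was *F13a1*, 0.22 higher in Act + FST (95% interval with the block 0.09 to 0.35, limma adjusted p = 0.14 with the block). *Hp* differed by 0.00 (95% interval −0.65 to 0.66) and *S100a4* by −0.07 (−0.50 to 0.35). In FST versus CTRL limma also called 0 of 9 genes and 0% of all genes, and 0 of 9 genes were under an unadjusted p of 0.05, with or without the block, against 4.89% and 2.09% of all genes. There the 9 estimates lay between −0.15 (*Chil3*) and 0.15 (*Plac8*).

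Whether the effect of activin A depended on FST288 was tested as an interaction, the difference of Act from CTRL minus that of Act + FST from FST. *Hp* passed, at 1.99 (SE 0.43, 95% interval 1.06 to 2.91, limma adjusted p = 0.015), as 1 of 9 genes against 6.74% of all genes. The interaction of *S100a4* was −0.88 (95% interval −1.48 to −0.28, limma adjusted p = 0.082), which was called with the replicate block (adjusted p = 0.025), so that 2 of 9 genes were called against 16.3% of all genes. For *F13a1* it was 0.22 (95% interval −0.41 to 0.86, limma adjusted p = 0.76). Those of the other 6 genes lay between −0.11 (*Plac8*) and 0.36 (*Ly6c2*), and none of them passed with or without the block.

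Many of these genes differed by replicate number. *Ly6c2*, *Chil3*, *S100a8*, and *S100a9* were called by replicate number but in no comparison of groups, with or without the block. The share of the variation that goes with either was not measured. In a model with group and replicate number, 6 of 9 genes differed by replicate number, where 21.6% of all genes tested did (limma F test, adjusted p at most 0.05). Replicate 2 was the highest library in 4 of 4 groups for *Chil3*, *S100a8*, and *S100a9*, a pattern that 2.92% of all genes had. It was the highest in at least 3 of 4 groups for *Ly6c2* and *Hp* as well, so for 5 of 9 genes, against 13.6% of all genes. Replicate 1 was the highest in 4 of 4 groups for *F13a1* and *Vcan*, so for 2 of 9 genes, against 13.1% of all genes. In at least 3 of 4 groups it was the highest for the same 2 of 9, against 24.8% of all genes. Replicate 3 was the highest in 4 of 4 groups for 0 of 9 genes, against 2.7% of all genes. For at least 3 of 4 groups it was also 0 of 9, against 12.9%.

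*Ly6c2* was 1.87-fold higher in replicate 2 than in replicate 1 and 1.67-fold higher than in replicate 3 (limma adjusted p = 0.0044). *S100a9* was 1.27-fold and 1.26-fold higher in replicate 2 (adjusted p = 0.0046), *Chil3* 1.38-fold over each of the others (adjusted p = 0.015), and *S100a8* 1.28-fold and 1.24-fold higher (adjusted p = 0.033). *F13a1* had another order, 1.5-fold higher in replicate 1 and 1.31-fold higher in replicate 2 than in replicate 3 (limma adjusted p = 4.3e-05). *Vcan* was 1.45-fold higher in replicate 1 than in replicate 3 (limma adjusted p = 0.026). *Hp* (1.42-fold over replicate 1, adjusted p = 0.091), *Plac8* (1.45-fold over replicate 1, adjusted p = 0.083), and *S100a4* (0.83 of replicate 1, adjusted p = 0.24) did not pass. The calls of *Chil3* and *S100a8* were lost when the variance was fitted without a trend (adjusted p = 0.11 and 0.099).

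**Figure D3:**
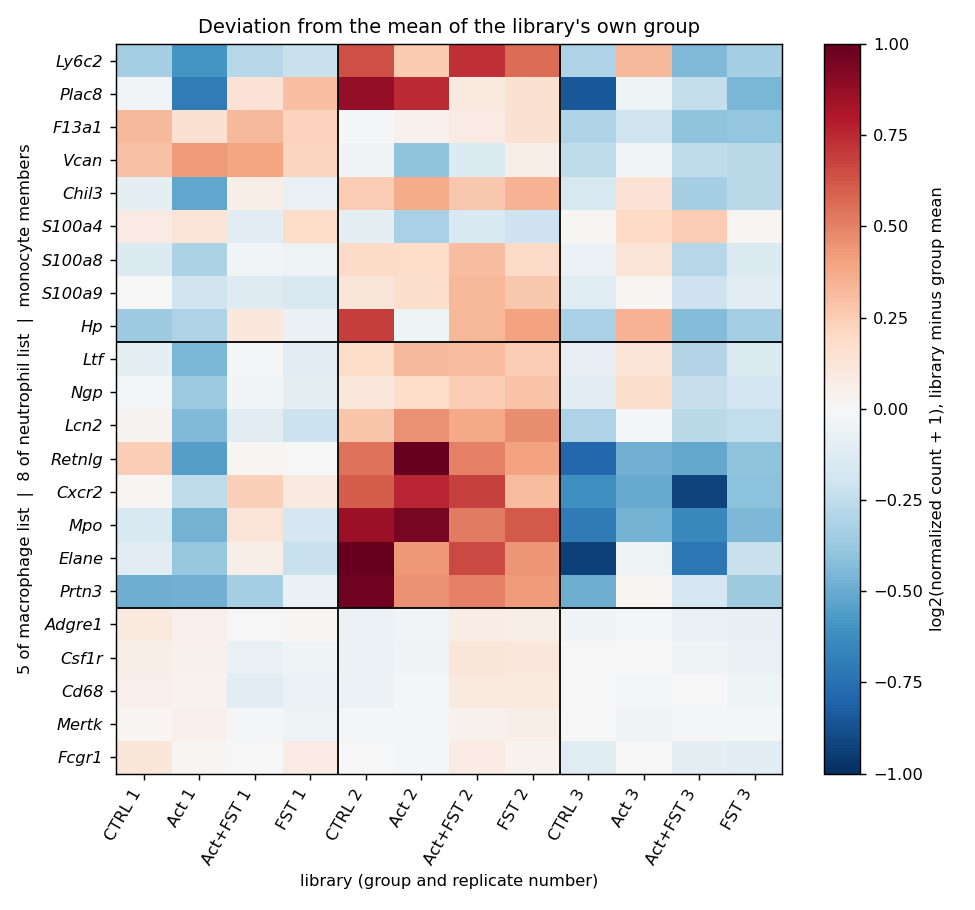
Colour shows log2(normalized count + 1) of each library (x axis, sorted by replicate number) minus the mean of its own group, for the 9 monocyte genes, 8 of the 15 neutrophil genes, and 5 of the 11 macrophage genes (y axis), with colours ending at ±1. Replicate 2 libraries were above their group means for *Ly6c2*, *Chil3*, *S100a8*, *S100a9*, and the neutrophil genes drawn, and the macrophage genes stayed near 0. The neutrophil genes drawn are all among the 9 of 15 with replicate 2 highest in 4 of 4 groups. *Mmp8*, *Camp*, and *Cebpe*, which are not drawn, did not have replicate 2 highest in at least 3 groups.

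Most genes of the neutrophil lineage differed by replicate number as well. Of 15 neutrophil genes, 11 differed by replicate number, against 21.6% of all genes. In 12 of 15 replicate 2 was the highest library in at least 3 groups, against 13.6% of all genes. The 11 did not all have the same order. *Mmp8*, which encodes a collagenase, was in replicate 2 at 0.862 of its level in replicate 1, which was the highest in 3 groups (limma adjusted p = 0.021), and *Csf3r* differed mainly by a lower level in replicate 3, with replicate 2 at 1.1-fold of it (adjusted p = 0.012). The summed value was 3362 to 3845 in replicate 2, 2911 to 3123 in replicate 1, and 2583 to 3444 in replicate 3. *Mpo* and *Elane*, which encode granule enzymes of immature neutrophils, were 1.87-fold and 1.75-fold higher in replicate 2 than in replicate 1 (limma adjusted p = 0.00017 and 0.009). The surface marker *Ly6g* was 2 to 12, *Ngp* 322 to 518, and *Mmp8* 377 to 536, and none of the 15 was at 0 in every library. By group, the summed value was 2714 to 3390 in CTRL, 3123 to 3845 in Act, 2583 to 3411 in Act + FST, and 2643 to 3362 in FST, which overlap. In Act versus CTRL, *Csf3r* rose (0.49, limma adjusted p = 0.00018), whereas *Mpo* (−2.01, adjusted p = 0.0092) and *Elane* (−1.64, adjusted p = 0.025) fell, and the other 12 neutrophil genes did not pass (median of the 15, −0.11). With the replicate block, 3 rose and 3 fell. Of all genes tested, 20.2% were called in this comparison, and 31.5% with the block. The part of neutrophil-lineage cells in the levels of *Ly6c2*, *Chil3*, *S100a8*, *S100a9*, and *Hp* was not tested. Of the 11 macrophage genes, 1 differed by replicate number, against 21.6% of all genes.

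A pair of collagen genes among the stromal markers was highest in replicate 1, as were *F13a1* and *Vcan*. The summed value of the 7 stromal genes with values was 99 to 264 in replicate 1, 71 to 75 in replicate 2, and 50 to 71 in replicate 3. Of the 4 tested, 2 differed by replicate number, where 21.6% of all genes did. Those 2 genes encode chains of type I collagen. The other 2 did not pass. *Cxcl12*, a chemokine gene, was highest in replicate 1 in 0 groups (limma adjusted p = 0.4), and *Pdgfrb*, a growth factor receptor gene, in 2 groups (adjusted p = 0.42). *Col1a1* was 22 to 83 in replicate 1 and 2 to 8 in the other libraries (limma adjusted p = 0.00016), and *Col1a2* was 24 to 109 and 0 to 9 (adjusted p = 2.3e-05). By group the stromal sum was 62 to 99 in CTRL, 71 to 264 in Act, 50 to 149 in Act + FST, and 53 to 168 in FST, which overlap. *Pdgfra*, a marker gene of fibroblasts, lay between 0 and 4. The part of stromal cells in the levels of *F13a1* and *Vcan* was not tested.

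The Act libraries kept the replicate pattern less closely for some genes. *Chil3* was the lowest of all libraries in Act replicate 1 (182, against 234 to 260 in the other replicate 1 libraries) and high in Act replicate 3 (289, against 198 to 245). Its replicate pattern in Act differed from that in the other groups (limma F test, adjusted p = 0.031), 1 of 9 genes against 0.321% of all genes. The step from replicate 1 to replicate 3 was 0.88 larger in Act on the log2 scale, and that from replicate 1 to replicate 2 was 0.57 larger. For *Ly6c2* the step to replicate 3 was 0.99 larger in Act and for *Hp* 0.91, and neither passed (limma adjusted p = 0.18 and 0.24). The *Chil3* call was lost when no genes were filtered out (adjusted p = 0.19) and without a trend in the variance (adjusted p = 0.36).

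**Figure D4:**
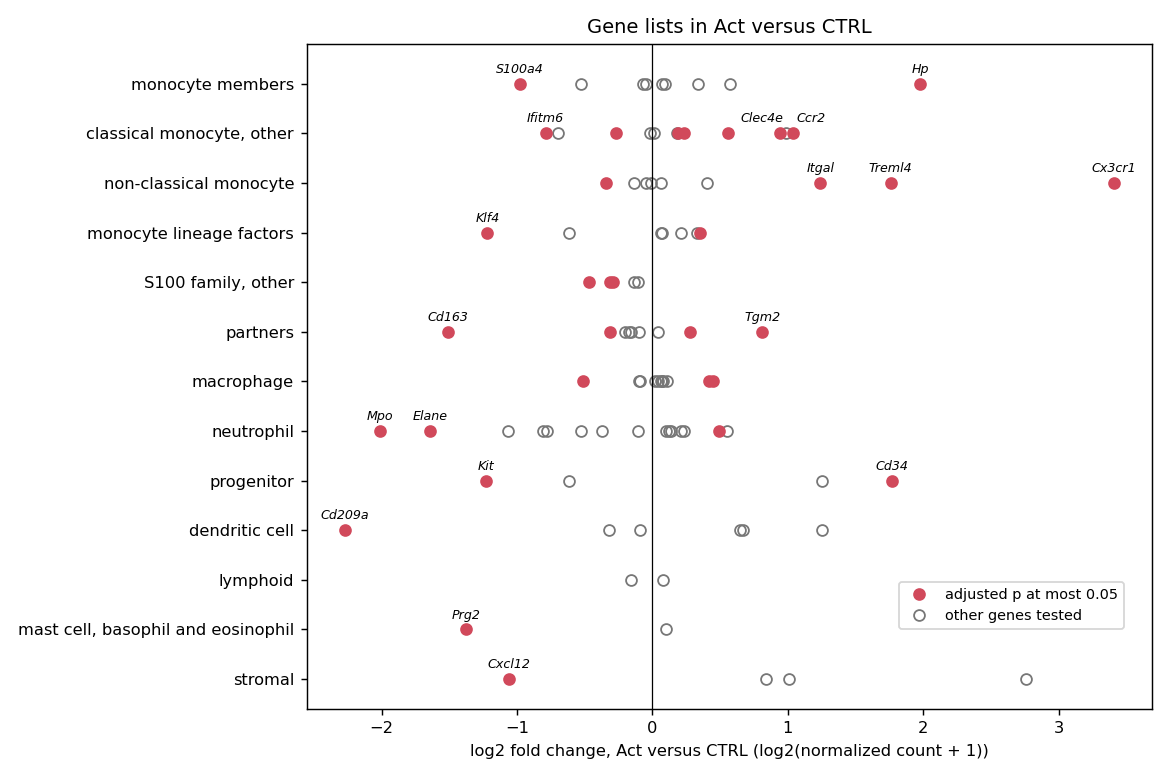
Log2 fold change of Act versus CTRL (x axis) for each tested gene of 13 lists (y axis), where filled points passed limma at an adjusted p of at most 0.05 and names are given from a change of 0.7. In the monocyte row, *Hp* (1.98) lay to the right and *S100a4* (−0.98) to the left, with the other 7 genes between −0.53 and 0.57.

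Other monocyte genes were examined beside the 9 markers. Of 12 further genes of classical monocytes, 5 rose and 2 fell in Act versus CTRL, with a median log2 fold change of 0.19. Of all genes tested, 20.2% were called in this comparison, and 31.5% with the replicate block. *Ccr2*, the receptor that draws these cells to CCL2, rose (1.04, limma adjusted p = 0.043), from 633, 508, and 272 in CTRL to 932, 873, and 940 in Act. *Clec4e*, which encodes the Mincle receptor, rose by 0.94 and *Ms4a4c* by 0.56, while *Ifitm6* fell by 0.79 (limma adjusted p = 5.5e-05, 0.0078, and 0.0084). *Ccr2* also differed by replicate number, 0.84 lower on the log2 scale in replicate 3 than in replicate 1 (limma adjusted p = 0.0036), the same order as for *F13a1*. In Act it kept no such order (limma adjusted p = 0.0072 for the difference of pattern). Of 7 transcription factors of the monocyte lineage (median 0.07), *Cebpa* rose (0.35, limma adjusted p = 2e-04), *Klf4*, which is needed for monocyte differentiation, fell (−1.22, adjusted p = 6.9e-06), and *Irf8* differed by 0.06 (adjusted p = 0.39). With the replicate block 2 of the 7 rose and 1 fell.

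The remaining *S100* genes and the binding partners of the monocyte proteins were also taken as lists. Like the others, these lists were chosen with earlier results of these data known. Of 13 other *S100* genes 8 were listed and 5 were tested, of which 3 fell in Act versus CTRL and 0 rose (median −0.29). The shares over all genes tested were 9.97% lower and 10.3% higher, and 31.5% in either direction with the replicate block. The *S100* genes that fell were *S100a6* (−0.47, limma adjusted p = 0.00098), *S100a1* (−0.31, adjusted p = 0.021), and *S100a10* (−0.29, adjusted p = 0.015). These were smaller falls than that of *S100a4*, and all 5 tested genes were below 0 under each scaling tried. Of 9 partner genes, 2 rose and 2 fell (median −0.16), beside the same shares over all genes. *Cd163*, the scavenger receptor that takes up haptoglobin bound to haemoglobin, fell (−1.51, limma adjusted p = 4.1e-05), from 252, 229, and 251 in CTRL to 92, 107, and 62 in Act, in the libraries where *Hp* was high. *Tgm2*, a transglutaminase related to factor XIII, rose (0.81, adjusted p = 3.4e-06), as did *Myh9*, the myosin that S100A4 binds (0.28, adjusted p = 0.0055). *Anxa2*, a partner of S100 proteins, fell (−0.31, adjusted p = 0.00041), and *Tlr4*, a receptor for S100A8 and S100A9, differed by −0.20 (adjusted p = 0.1). With the replicate block *Tlr4* passed (95% interval −0.29 to −0.11, limma adjusted p = 0.0018), so that 2 partner genes rose and 3 fell. Of 11 macrophage genes (median 0.06), 2 rose and 1 fell, where 20.2% of all genes were called. The complement gene *C1qa* rose (0.42), the mannose receptor gene *Mrc1* fell (−0.51), and *Adgre1* differed by −0.10 (limma adjusted p = 0.00083, 0.00012, and 0.24).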

How the data were processed

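RNA sequencing covered 12 BMDM libraries, 3 per group, and groups and replicate numbers were taken from the sample labels. The authors used Trimmomatic 0.39 on single-end reads, STAR 2.7.9a for alignment to mm10, and featureCounts 2.0.2 for counts per gene, from which reads on several genes or aligning to several places were excluded. The signal that the authors deposited is a normalized count, scaled by 1 factor per library and rounded, so depth differences are already removed and low counts carry a rounding error. Their own DEGs came from DESeq2 1.30.0. The scaling formula and the strand setting are not given in the sources used here. Whole reads could not be recovered uniquely, so no count model was fitted.

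The test was that of limma 3.58.1, run in R 4.3.3 with a variance trend in the empirical Bayes step, on log2(normalized count + 1). A single model held 4 group means and the 14318 genes whose mean was 5 or more. Fold changes on this scale understate those of low genes. P-values were two-sided and Benjamini-Hochberg adjusted over all genes tested. Genes were called at an adjusted p of at most 0.05, and DEGs also needed a 2-fold change. Exact permutation tests of 3 against 3 libraries cannot go below p = 0.1 and were not used for calls. Replicate numbers paired the libraries, since deviations from the group means correlated in all 18 same-numbered pairs across genes (0.157 to 0.481), so results with the replicate block are given where they change a call. The scripts were tested on simulated data. The monocyte genes and all gene lists were chosen with earlier results of these data known. Named are all 9 members, the first gene of each list and up to 4 of its largest called changes, and the 5 genes most like *Ly6c2* and like the members' mean. *Fn1*, *Col1a2*, and *Pdgfra* were named after their values were seen, and some list genes are not reported here. Alternatives were pseudocounts of 0.5 and 5, no filter and a mean of at least 50, median-of-ratios factors, quantile normalization, no trend, the replicate block, only the 6 libraries compared, and dropping each library in turn. Coordinates and exon lengths come from GENCODE for GRCm38, promoter windows from RefSeq, and figures from matplotlib 3.10.9.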

Additional observations from a re-analysis of the deposited data

Results flagged for a closer look

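2 of the monocyte genes stood out because an effect differed between groups by a direct test of that difference. For *Hp*, the effect of activin A without FST288 exceeded its effect in the presence of FST288 by 1.99 on the log2 scale (limma adjusted p = 0.015). *Hp* lay at 171 to 270 in Act and at 39 to 86 in the other 9 libraries. For *Chil3*, the pattern over replicate numbers in Act differed from that in the other 3 groups, with a difference of 0.88 on the log2 scale in the step from replicate 1 to replicate 3 (limma adjusted p = 0.031). Of all genes, 6.74% passed the first test and 0.321% the second. The *Chil3* call was lost without a filter on low values and without a trend in the variance (limma adjusted p up to 0.36). What lies behind either difference was not tested.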

How the results depend on the processing

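No result changed direction past the threshold under any alternative run. *Hp* in Act versus CTRL stayed between 1.80 and 2.32 (adjusted p from 1.3e-05 to 0.0041 over 21 alternatives), and *S100a4* between −1.08 and −0.82 (0.00063 to 0.017 over 20). The *Hp* interaction stayed between 1.77 and 2.33 (0.00065 to 0.045 over 20). With only genes of a mean of at least 50 tested, which leaves *S100a4*, *Vcan*, and *Plac8* untested, 1 monocyte gene was called in Act versus CTRL and 1 in Act versus Act + FST, in place of 2 each. The replicate block, which rests on the pairing by replicate number, raised the calls to 4 in Act versus CTRL and to 2 for the interaction, and no called gene lost its call with it. The difference of replicate pattern in Act was called for 0 monocyte genes without a filter and 0 without a trend, in place of 1 (*Chil3*). Leaving out each library in turn gave 2 to 3 calls in Act versus CTRL, 2 to 2 in Act versus Act + FST, 2 to 3 in Act versus FST, 1 to 1 for the interaction, and 0 to 0 in the comparisons of Act + FST and FST with CTRL.

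*F13a1* in Act versus CTRL was the least settled, with an adjusted p from 8.8e-06 to 0.26. It passed with only the 6 libraries compared (0.032), without CTRL replicate 1 (0.73, adjusted p = 0.034), and without Act + FST replicate 3 (0.57, adjusted p = 0.038). Over all results for single genes and all alternatives, those of *F13a1* included, 1210 values kept their side of the threshold, 9 passed only under the alternative, and 8 were lost under it. Counts near 20, as for *Plac8*, limit what can be resolved, and the deposited scaling hides the original depth.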

Other observations

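Markers of non-classical monocytes, the patrolling subset with low Ly6C, were taken as a further list. Of 9 genes, 3 rose and 1 fell in Act versus CTRL, where 20.2% of all genes tested were called, and their median log2 fold change was 0.06. The counts were the same with the replicate block, and the list was not tested against the 9 markers. *Cx3cr1*, the fractalkine receptor, went from 205, 502, and 80 in CTRL to 2207, 2123, and 2142 in Act (log2 difference 3.41, limma adjusted p = 0.0014). *Treml4* rose by 1.76 (adjusted p = 0.00012) and the integrin gene *Itgal* by 1.24 (adjusted p = 3e-05), while *Fabp4* fell by 0.34 (adjusted p = 0.031). *Nr4a1*, which encodes the factor this subset depends on, differed by −0.01 (limma adjusted p = 0.99). Genes of this list are also expressed by macrophages, and whether the subset was present was not tested. *Fn1*, of the classical monocyte list, had another pattern over replicate numbers in Act than in the other groups (limma adjusted p = 0.041). It was 310, 282, and 359 in Act and 238, 159, and 105 in CTRL. That log2 difference of 0.99 did not pass (95% interval −0.13 to 2.11, limma adjusted p = 0.21), and was called with the replicate block (adjusted p = 0.021).

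Markers of rarer cells were low. In Act versus CTRL, the comparison given for them here, 20.2% of all genes tested were called, and 31.5% with the replicate block. Of 4 progenitor genes tested, *Cd34* rose from 11, 15, and 9 in CTRL to 50, 26, and 54 in Act (limma adjusted p = 0.0032) and *Kit* fell (−1.23, adjusted p = 0.017). Of 6 dendritic cell genes, *Cd209a* fell (−2.27, limma adjusted p = 0.011) and *Flt3* differed by 1.25 (adjusted p = 0.17, blocked by replicate 0.021). In 6 of 6 replicate 2 was the highest library in at least 3 groups, against 13.6% of all genes. *Prg2*, of granules of eosinophils and basophils, fell (−1.38, limma adjusted p = 0.048), the other gene of its list that was tested did not pass, and the first, *Cpa3*, was at 0 to 9. Of the 2 lymphoid genes tested 0 passed, and *Cd3e* and the 5 erythroid genes were not analysed here. Among 4 stromal genes tested, *Cxcl12* fell (−1.06, limma adjusted p = 0.017).

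The genes most like *Ly6c2* over the 12 libraries, among 10628 genes with a mean of at least 50, were *H2-DMb1* (Pearson r = 0.970), *Bscl2* (0.915), *Ltf* (0.905), *Nxf1* (0.895), and *Chil1* (0.881). *H2-DMb1* was 307, 309, 307, and 305 in replicate 2 of CTRL, Act, Act + FST, and FST, 305 in Act replicate 3, and 267 to 285 elsewhere, a far smaller step than that of *Ly6c2*. After centring on group means, the genes most like the mean of the 9 markers were *Hpn* (0.969), *Aif1* (0.965), *Tpcn2* (0.955), *Siah1a* (0.949), and *Calhm6* (0.936). These are descriptions chosen from many genes, and the 12 points share replicate number, scaling, and depth.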
